A study of Rattus norvegicus with 23 samples.

Results

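Neuregulin 1 (Nrg1) and the receptor pair ErbB2 and ErbB3 (Erbb2, Erbb3) were followed as 3 genes of the 32545 in a rat RNA-seq count table, chosen by their Ensembl identifiers: ENSRNOG00000010392 for Nrg1, ENSRNOG00000006450 for Erbb2 and ENSRNOG00000004964 for Erbb3. All 3 identifiers were present and passed the filter on low counts in both fits used. The 23 libraries came from wild-type adult female rats and fell into 7 groups. Healthy, untreated tissue was sampled as median nerve (n = 5), epigastric vein (n = 3) and adductor muscle (n = 3). In the other 4 groups the median nerve had been transected, with an 8 mm gap between the stumps, and repaired, and was collected 3 or 7 days later from libraries titled EV or MIV (n = 3 per title and day). The series text names a 10 mm muscle-in-vein graft, a length of vein filled with skeletal muscle. The treatment label is repair after the cut for EV and adds MIV for the MIV libraries, and the labels do not spell out EV.

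Neuregulin 1 is a growth factor with an EGF-like domain that Schwann cells, the glia of peripheral nerve, need for survival, migration and myelination. It binds ErbB3, whose own kinase is nearly inactive, and ErbB3 signals by pairing with ErbB2, which binds no known ligand but carries an active kinase. Axons present membrane-bound neuregulin 1 made in neuron cell bodies, whose RNA lies mostly outside the nerve, while Schwann cells and other cells of the nerve can make soluble forms. The RefSeq table of the GRCr8 assembly lists 22 transcripts for Nrg1, and gene-level counts add these forms together.

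Library totals ranged from 12504035 to 17314324 counts. Levels are given as CPM (counts scaled to a common library size), with library sizes adjusted by trimmed-mean (TMM) factors. They compare a gene across libraries and not one gene with another, since no transcript lengths were used. Counts per library were 0 to 144 for Nrg1, 2 to 390 for Erbb2 and 20 to 7534 for Erbb3, so Nrg1 had the least counting precision. No label says that libraries of a group came from separate animals, and p-values then measure only the spread between these samples, which may be technical. MIV day 7 was the group whose libraries differed most, with replicate correlations of log2 CPM across genes of 0.874 to 0.952, against 0.952 or more in the others. Results that rest on it are given with and without its single libraries. The gene lists for the wider ErbB pathway and for cell types (12 lists) could not be measured, because 0 identifiers of the table could be paired with a symbol beyond the 3 genes here. The labelled tissues were therefore not checked against named markers.

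**Figure D1:**
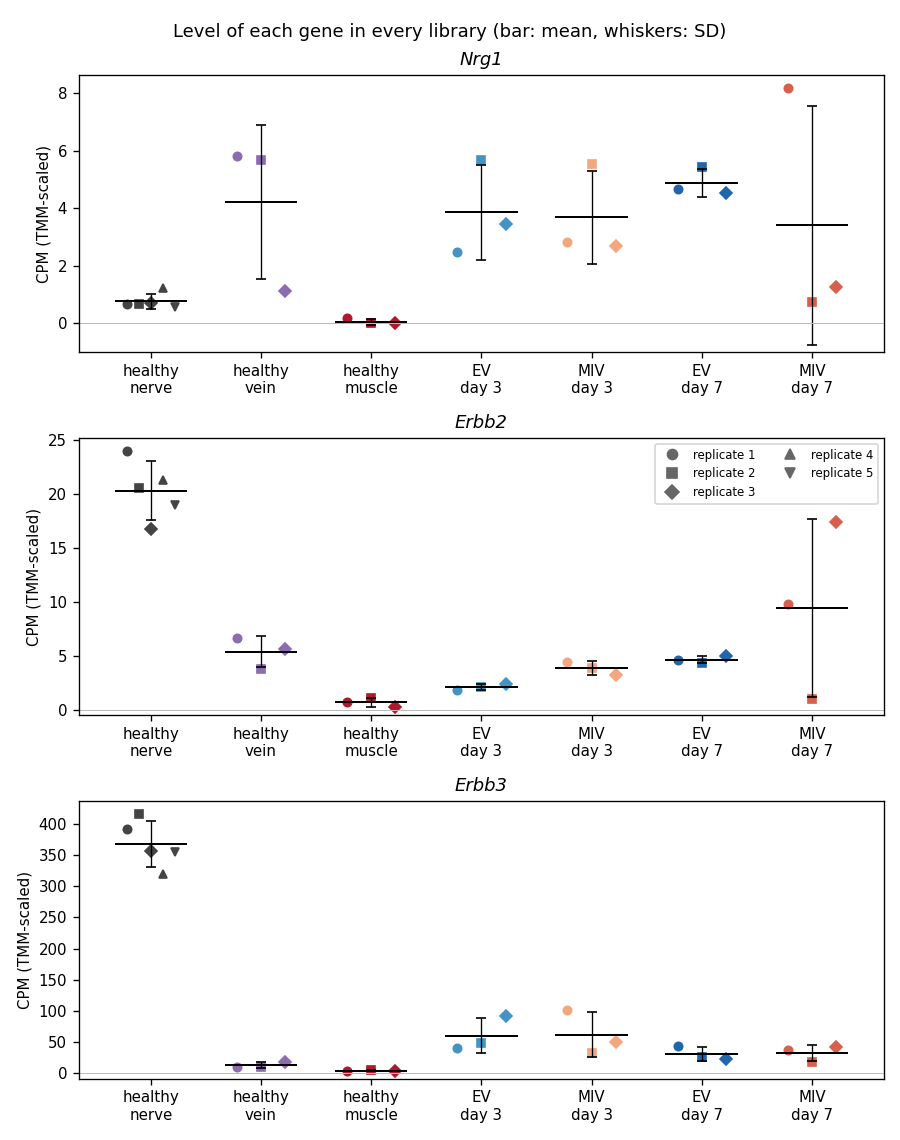
Level of Nrg1, Erbb2 and Erbb3 in every library, in TMM-scaled CPM on a linear axis, for the 7 groups; points are libraries with symbol shapes for the replicate numbers, the bar is the group mean and the whiskers are 1 SD. Nrg1 is low in healthy nerve and muscle and higher in most repaired libraries, Erbb3 stands at 319 to 416 CPM in healthy nerve and at or below 102 CPM elsewhere, and the MIV day 7 libraries spread widely for Nrg1 and Erbb2.

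The ligand gene was scarce in healthy nerve and higher after repair. In the 5 healthy nerve libraries Nrg1 stood at 0.676, 0.662, 0.702, 1.23 and 0.568 CPM, from 8 to 20 counts each. At day 3 it stood at 2.47, 5.69 and 3.44 CPM in EV and at 2.82, 5.54 and 2.69 CPM in MIV. Every day 3 library of both series lay above every healthy nerve library. At day 7 EV held 4.67, 5.42 and 4.54 CPM, the tightest of the repaired groups, with a coefficient of variation of 9.72%. MIV at day 7 held 8.19, 0.747 and 1.27 CPM, so that 1 library carried the highest Nrg1 level of all 23 and the other 2 lay at or near the range of healthy nerve.

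Compared with healthy nerve, Nrg1 rose in all 4 repaired groups (edgeR's quasi-likelihood test over all 23 libraries, Benjamini-Hochberg adjustment over 15954 genes). The log2 fold change was 2.32 ± 0.63 (SE, adjusted p = 0.00370) in EV at day 3 and 2.65 ± 0.63 (adjusted p = 0.00180) in EV at day 7. It was 2.25 ± 0.63 (adjusted p = 0.00448) in MIV at day 3 and 2.14 ± 0.63 (adjusted p = 0.00748) in MIV at day 7. On the linear scale these are 4.98-, 6.29-, 4.74- and 4.42-fold, with 95% intervals whose lowest bound was 1.77 and whose highest was 15.6. The 4 comparisons share the same 5 healthy nerve libraries. The rise in MIV at day 7 rested on replicate 1: without it the log2 fold change was 0.38 (adjusted p = 0.607).

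The receptor genes went the other way. Erbb3, the receptor that binds neuregulin 1, stood at 391, 416, 356, 319 and 355 CPM in healthy nerve. At day 3 it stood at 39.8, 49.0 and 92.3 CPM in EV and at 102, 33.0 and 51.0 CPM in MIV. At day 7 the values were 43.7, 26.0 and 22.3 CPM in EV and 37.5, 18.6 and 42.9 CPM in MIV. No repaired library came within a factor of 3 of the lowest healthy nerve library, and the group means were 16.4% (EV day 3), 16.9% (MIV day 3), 8.35% (EV day 7) and 8.98% (MIV day 7) of the healthy nerve mean.

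Erbb3 fell in all 4 repaired groups relative to healthy nerve. At day 3 the edgeR log2 fold change was -2.61 ± 0.39 in EV (SE, adjusted p = 1.12e-05) and -2.57 ± 0.39 in MIV (adjusted p = 1.27e-05). At day 7 it was -3.58 ± 0.41 in EV (adjusted p = 9.80e-07) and -3.48 ± 0.41 in MIV (adjusted p = 1.16e-06). These are 6.08-, 5.93-, 12.0- and 11.1-fold lower levels in the order given. Leaving out each MIV day 7 library in turn gave -3.71 to -3.19 for that group. Genes enriched in healthy nerve took 25.0% to 28.7% of the counts in healthy nerve and 4.19% to 6.60% in the repaired libraries. They were chosen as high in these same healthy nerve libraries and include Erbb2 and Erbb3, so this difference is favoured by the choice. The part of tissue make-up in the lower receptor levels was not tested. In bulk tissue, fewer cells of a type and less RNA per cell cannot be told apart.

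Erbb2, the kinase-active partner, stood at 24.0, 20.6, 16.7, 21.2 and 18.9 CPM in healthy nerve. Among the repaired groups its mean was lowest in EV at day 3, with libraries at 1.87, 2.11 and 2.43 CPM. In MIV at day 3 it stood at 4.48, 3.94 and 3.21 CPM. At day 7 EV held 4.67, 4.32 and 4.96 CPM, while the MIV libraries held 9.84, 1.02 and 17.4 CPM, a 17.1-fold range within the group. MIV day 7 replicate 3 alone among the 12 repaired libraries reached the healthy nerve range.

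Erbb2 fell relative to healthy nerve in 3 of the 4 repaired groups. The edgeR log2 fold change was -3.24 ± 0.55 in EV at day 3 (SE, adjusted p = 4.92e-05), -2.39 ± 0.52 in MIV at day 3 (adjusted p = 0.000570) and -2.12 ± 0.51 in EV at day 7 (adjusted p = 0.00205), or 9.46-, 5.23- and 4.36-fold lower. In MIV at day 7 it was -1.11 ± 0.48 and did not pass with edgeR (adjusted p = 0.0602), while DESeq2 gave -1.11 with an adjusted p of 0.0430, in a fit that called 23.9% of genes lower. Without MIV day 7 replicate 3 the edgeR value was -1.89 (adjusted p = 0.00541, with 24.2% of genes called lower), and without replicate 2 it was -0.58 (adjusted p = 0.0952).

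Changes of this kind were common in the table. Among all genes, 30% passed as higher and 30.7% as lower in EV at day 3, 24.1% and 24% in EV at day 7, 30.9% and 30.6% in MIV at day 3, and 29.2% and 25.4% in MIV at day 7. Libraries lay wholly above healthy nerve, as those of Nrg1 did outside MIV day 7, for 29.1% of genes in EV at day 3, 26.1% in EV at day 7 and 30.6% in MIV at day 3. They lay wholly below it, as those of Erbb3 did, for 30.7%, 26.9% and 30.8% in the same order and for 24.6% in MIV at day 7. All 3 genes passed in EV at day 3, EV at day 7 and MIV at day 3, where 60.7%, 48% and 61.4% of all genes tested passed in either direction, and 2 of the 3 passed in MIV at day 7, against 54.5% of all genes. Nrg1 had a higher log2 fold change than 89.4% to 94.2% of the genes tested across the 4 comparisons. Erbb3 lay above only 3.85% of genes in EV and 3.999% in MIV at day 7, and above 9.57% and 9.51% at day 3. Erbb2 lay above 7.25% (EV day 3), 7.77% (EV day 7), 10.4% (MIV day 3) and 15.9% (MIV day 7) of genes. Over all genes the median was between -0.01 and 0.05 in these comparisons.

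**Figure D2:**
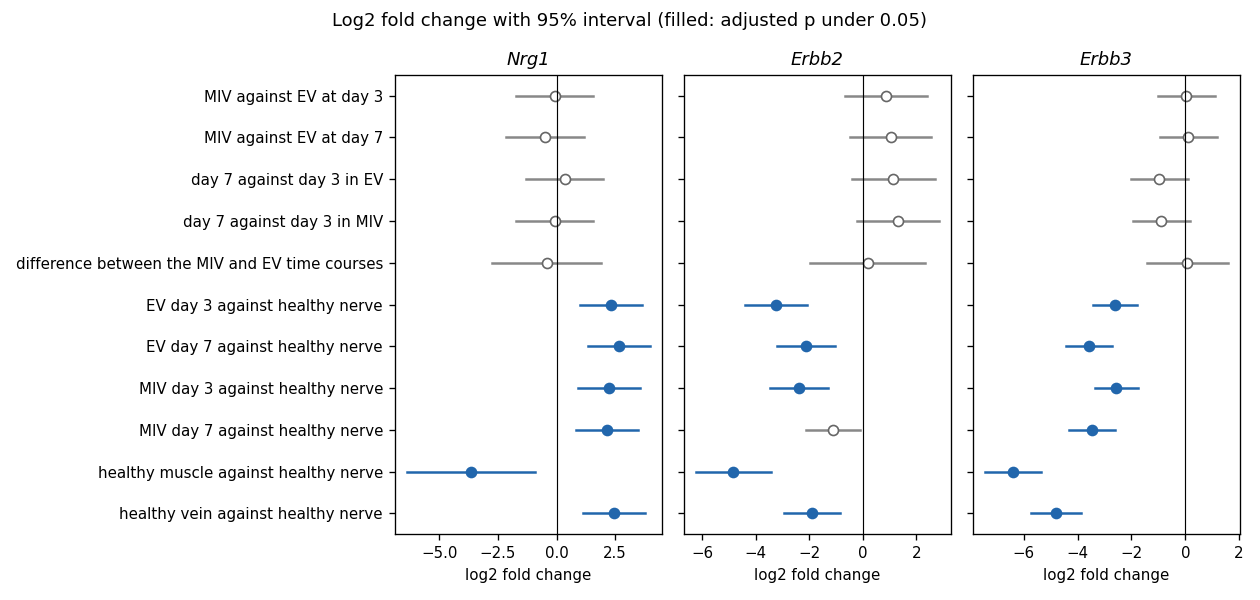
Log2 fold change of each gene in the 11 comparisons, with its 95% interval as a line; filled blue points passed edgeR's quasi-likelihood test at an adjusted p under 0.05 and open grey points did not. Nrg1 lies to the right of 0 and Erbb2 and Erbb3 to the left of 0 in each comparison of a repaired group with healthy nerve, and no gene passed in the 5 comparisons among repaired nerves.

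Healthy vein and muscle differed from nerve in opposite directions for the ligand. Healthy vein held 5.81, 5.69 and 1.12 CPM of Nrg1, from 115, 82 and 21 counts, and healthy muscle held 1 count in 1 library and 0 in the other 2. In muscle libraries 3 counts correspond to 0.422 to 0.542 CPM, which is the limit that a count of 0 allows for counting error. Nrg1 was higher in vein than in nerve (log2 fold change 2.44 ± 0.63 SE, edgeR adjusted p = 0.00425), although vein replicate 3 lay within the nerve range. It was lower in muscle (edgeR adjusted p = 0.0190). The nerve-to-muscle ratio was 14.5, with a 95% exact interval for counting error alone of 2.50 to 582, and the call was lost without muscle replicate 2 or 3 (adjusted p = 0.0681 and 0.0780).

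Both receptor genes were lower in the other healthy tissues than in nerve. Erbb3 stood at 10.9, 10.1 and 18.2 CPM in vein and at 3.61, 5.22 and 4.08 CPM in muscle, which made it 28.1-fold lower in vein (edgeR adjusted p = 7.09e-08) and 85.1-fold lower in muscle (adjusted p = 1.01e-09). Erbb2 stood at 6.67, 3.82 and 5.70 CPM in vein and at 0.723, 1.14 and 0.282 CPM in muscle. The folds for Erbb2 were 3.75 lower in vein (edgeR adjusted p = 0.00507) and 28.6 lower in muscle (adjusted p = 2.73e-06). All 3 genes passed in both tissues, where 40.3% (vein) and 67.3% (muscle) of all genes did. Scaling without muscle-enriched genes moved the median over all genes in muscle against nerve from -0.19 to 0.20, and the share of called genes that were higher from 46.8% to 59.1%. All 3 genes were lower in muscle under both scalings.

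Ordered by mean level, Nrg1 ran from EV day 7 (4.88 CPM ± 0.474 SD, n = 3) through vein (4.21 ± 2.68, n = 3), EV day 3 (3.86 ± 1.65, n = 3), MIV day 3 (3.68 ± 1.61, n = 3) and MIV day 7 (3.40 ± 4.15, n = 3) to nerve (0.767 ± 0.263, n = 5) and muscle. Neighbours in this order overlapped in their libraries except nerve and muscle, where 36.1% of all genes lay wholly lower in muscle. Erbb2 ran from nerve (20.3 CPM ± 2.70 SD, n = 5) through MIV day 7 (9.43 ± 8.22, n = 3), vein (5.40 ± 1.45, n = 3), EV day 7 (4.65 ± 0.321, n = 3) and MIV day 3 (3.88 ± 0.634, n = 3) to EV day 3 (2.14 ± 0.284, n = 3) and muscle (0.716 ± 0.430, n = 3). The last 2 steps had no overlap and the earlier ones did. Such a gap was found for 7.21% of genes from MIV day 3 to EV day 3 and for 35.7% from EV day 3 to muscle. Erbb3 ran from nerve (mean 367.5 CPM ± 37.1 SD, n = 5) to MIV day 3 (62.0 ± 35.8, n = 3) with no overlap. It continued through EV day 3 (60.4 ± 28.0, n = 3), MIV day 7 (33.0 ± 12.8, n = 3) and EV day 7 (30.7 ± 11.4, n = 3), which overlapped with their neighbours. Vein (13.1 ± 4.47, n = 3) and muscle (4.31 ± 0.827, n = 3) followed, each separated from the group above it, as were 24.6% of genes from EV day 7 to vein and 37.2% from vein to muscle.

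MIV and EV nerves were compared within each day, since the series title asks what muscle fibres do in such grafts. None of the 3 genes passed edgeR's test in the 12 repaired libraries at either day, and 0% of the 15036 genes tested did. At an unadjusted p under 0.05 there were 776 genes at day 3 and 2515 at day 7, and DESeq2 called 238 and 813. When the day 7 libraries were blocked by replicate number, edgeR called 43 genes at day 7, none of them among the 3 here.

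For Erbb3 the series lay close together. The log2 fold change of MIV over EV was 0.04 at day 3 (95% interval -1.02 to 1.10) and 0.11 at day 7 (-0.96 to 1.18), and differences within these intervals were not resolved. For Nrg1 it was -0.07 at day 3 (-1.71 to 1.58) and -0.49 at day 7 (-2.14 to 1.15). Leaving out MIV day 7 replicate 1 moved the day 7 value of Nrg1 to -2.28 (adjusted p = 0.0759), and leaving out replicate 2 or 3 moved it to -0.02 or -0.09. With the replicate block within day 7 it was -1.25 (adjusted p = 0.399).

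Erbb2 had a positive log2 fold change of MIV over EV at both days. At day 3 all 3 MIV libraries lay above all 3 EV libraries, as they did for 7.21% of the genes tested, with a log2 fold change of 0.86 ± 0.70 (SE, 95% interval -0.68 to 2.40, edgeR adjusted p = 1). At day 7 it was 1.04 ± 0.68 (-0.47 to 2.55, adjusted p = 0.446), with MIV replicates 1 and 3 above every EV library and replicate 2 below them all. Without MIV day 7 replicate 2 the day 7 value was 1.57 and passed (adjusted p = 0.0130, against 4.21% of genes called higher in that fit). Without replicate 3 it was 0.25 (adjusted p = 0.867), and with the replicate block within day 7 it was 0.45 (adjusted p = 0.752). The size of the day 7 difference thus moved with single libraries.

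The make-up of the MIV day 7 libraries varied alongside. Genes enriched in healthy muscle took 24.8%, 17.9% and 37.4% of the counts in replicates 1, 2 and 3, against 16.1% to 17.1% in the EV day 7 libraries. These genes also took 14.0% to 17.1% in healthy nerve and 15.8% to 17.3% in healthy vein, so the share is not muscle content alone. Genes enriched in healthy vein took 7.86%, 6.02% and 5.07%, against 9.21% to 9.79% in EV. Genes enriched in healthy nerve took 5.90%, 4.63% and 4.19%, against 5.73% to 5.92% in EV. Replicate 1, with the highest Nrg1 level, had the highest vein-enriched share of the 3. Replicate 3, with the lowest, held more Nrg1 than replicate 2 (1.27 against 0.747 CPM). Replicates 1 and 3, with the higher Erbb2 levels, had the higher muscle-enriched shares. Replicate 3, with the highest Erbb2 level of the 3, had the lowest nerve-enriched share. Healthy muscle held at most 1.14 CPM of Erbb2, and grafted muscle was not measured on its own. The part of tissue make-up in the Nrg1 and Erbb2 values was not tested.

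**Figure D3:**
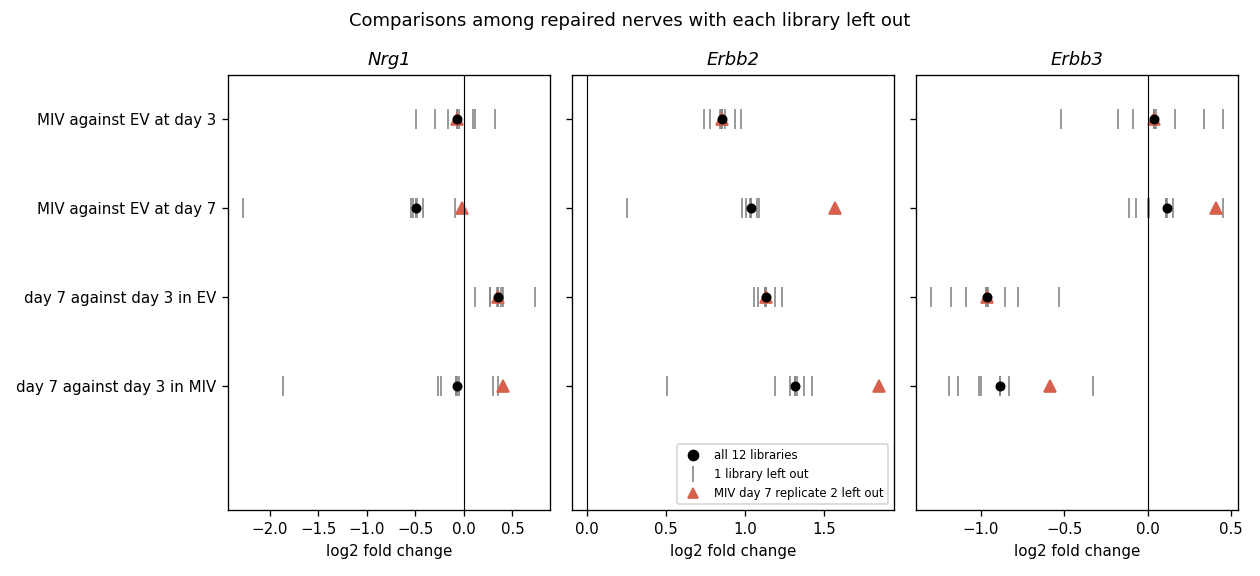
Log2 fold change of each gene in 4 comparisons among repaired nerves with all 12 libraries (black points), with each other library left out in turn (grey bars) and with MIV day 7 replicate 2 left out (red triangles). For Erbb2 the MIV against EV value at day 7 moves from 1.04 to 1.57 without replicate 2 and to 0.25 without replicate 3, while the day 7 against day 3 value in EV stays between 1.06 and 1.23.

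From day 3 to day 7 the fold changes of the 2 receptor genes had opposite signs, and none of the 3 genes passed in either series, where 19.6% (EV, 9.41% higher and 10.2% lower) and 15.5% (MIV, 7.39% higher and 8.09% lower) of genes did. Erbb3 had a log2 fold change of -0.96 ± 0.49 in EV (SE, edgeR adjusted p = 0.188) and -0.89 ± 0.49 in MIV (adjusted p = 0.232). Libraries of the 2 days overlapped in both series. Without EV day 3 replicate 3 the EV value was -0.53, and without MIV day 3 replicate 1 the MIV value was -0.33 (adjusted p = 0.527 and 0.664). Erbb2 had a log2 fold change of 1.14 ± 0.70 in EV (SE, adjusted p = 0.274) and 1.32 ± 0.69 in MIV (adjusted p = 0.210). In EV every day 7 library lay above every day 3 library for Erbb2, as was the case for 22.9% of genes.

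Leaving out 1 library changed the Erbb2 calls over time. Without MIV day 7 replicate 2 Erbb2 passed from day 3 to day 7 in EV (log2 fold change 1.14, adjusted p = 0.0138, with 12.5% of genes called higher in that fit). That library belongs to neither EV group, and the EV value stayed at 1.14. The spread estimated over all groups changed, and so did the genes tested (15405, against 15036 in the main fit). The unadjusted p from edgeR went from 0.134 to 0.00181. For EV, this leave-out was chosen after seeing the data. In MIV, Erbb2 also passed without replicate 2 (1.85, adjusted p = 0.00228, with 12% called higher). Without MIV day 7 replicate 3 its MIV value was 0.50 (adjusted p = 0.648). Nrg1 had a log2 fold change of 0.35 ± 0.74 in EV and -0.07 ± 0.74 in MIV (SE, edgeR adjusted p = 0.768 and 0.959). Without MIV day 7 replicate 1 its MIV value was -1.86 (adjusted p = 0.0499525, with 5.41% of genes called lower in that fit), and without replicate 2 or 3 it was 0.40 or 0.30.

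The difference between the 2 time courses was tested as an interaction. It was -0.43 ± 1.05 for Nrg1, 0.18 ± 0.98 for Erbb2 and 0.08 ± 0.68 for Erbb3 in log2 units (± SE, adjusted p from edgeR = 0.958, 0.982 and 0.992). In this test 0% of genes passed, with 796 at an unadjusted p under 0.05 and 16 with DESeq2.

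Ratios of counts within a library do not depend on library scaling and were compared between groups with two-sided exact permutation tests, adjusted over 12 comparisons. Healthy nerve held 16.3, 20.2, 21.3, 15.01 and 18.7 Erbb3 counts for each Erbb2 count. In EV the ratio was 21.4, 23.2 and 38.0 at day 3 and 9.35, 6.01 and 4.50 at day 7, so the day 7 libraries all lay below nerve. In MIV it was 22.8, 8.36 and 15.9 at day 3 and 3.81, 18.3 and 2.46 at day 7, where replicate 2 kept a ratio within the nerve range and the other 2 lay below it.

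The Erbb3 to Erbb2 ratio was lower than in healthy nerve in EV at day 7, by a difference of -1.53 in mean log2 ratio (2.65 ± 0.530, n = 3, against 4.18 ± 0.211, n = 5, SD; exact permutation p = 0.0179, the smallest possible, adjusted p = 0.0429). In MIV at day 7 the difference was -1.72 and did not pass (exact permutation p = 0.0536, adjusted p = 0.0918), and it was -1.14 to -2.57 with 1 MIV library left out. At day 3 it was 0.53 in EV (exact permutation p = 0.0357, adjusted p = 0.0714) and -0.34 in MIV (exact permutation p = 0.411, adjusted p = 0.493). Between MIV and EV it was -0.87 at day 3 and -0.20 at day 7 (exact permutation p = 0.2 and 0.9, with 0.1 the smallest that 3 against 3 can give).

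**Figure D4:**
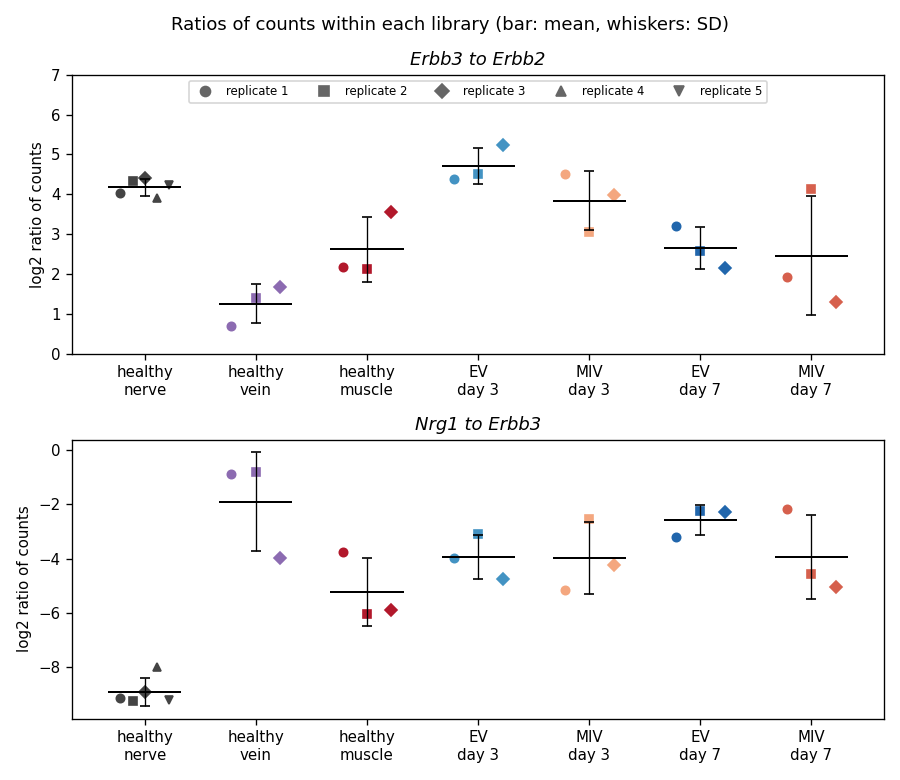
Log2 ratio of Erbb3 to Erbb2 counts (upper panel) and of Nrg1 to Erbb3 counts (lower panel) in each library, with 0.5 added to each count; points are libraries, the bar is the group mean and the whiskers are 1 SD. The Nrg1 to Erbb3 ratio lies above healthy nerve in every repaired library, and the Erbb3 to Erbb2 ratio of the 3 EV day 7 libraries lies below all 5 nerve libraries.

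The ratio of ligand to receptor counts was higher than in healthy nerve in every repaired group. Healthy nerve held 0.159 to 0.385 Nrg1 counts per 100 Erbb3 counts. The repaired libraries held 6.19, 11.6 and 3.73 in EV at day 3, 10.7, 20.8 and 20.3 in EV at day 7, 2.76, 16.8 and 5.26 in MIV at day 3 and 21.9, 4.01 and 2.95 in MIV at day 7. The lowest repaired library thus lay above the highest nerve library. Relative to nerve the mean log2 ratio was higher by 4.95 in EV at day 3, 6.30 in EV at day 7, 4.90 in MIV at day 3 and 4.95 in MIV at day 7 (exact permutation p = 0.0179 for each, the smallest possible, adjusted p = 0.0429). With any 1 library left out, none of the 4 passed (adjusted p from 0.0571 to 0.107), and neither did the Erbb3 to Erbb2 ratio in EV at day 7 (0.0571 to 0.0918). The smallest exact permutation p is then 0.0286 with 1 nerve library out and 0.0476 with 1 repaired library out. This loss thus cannot show whether the calls rest on single libraries. The Nrg1 to Erbb3 ratio combines the Nrg1 and Erbb3 differences given above and is not separate evidence for them. Between MIV and EV it differed by -0.05 at day 3 and -1.35 at day 7 (exact permutation p = 1 and 0.4).

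The receptor genes were set beside the 1485 genes that were higher in healthy nerve than in both other healthy tissues (log2 fold change above 1, adjusted p under 0.05), a list that includes Erbb2 and Erbb3 and was defined on these libraries, so that its fall against healthy nerve is favoured by its choice. Against healthy nerve its median log2 fold change was -2.81 in EV and -2.68 in MIV at day 3, close to the -2.61 and -2.57 of Erbb3. At day 7 the medians were -2.28 in EV and -2.33 in MIV, while Erbb3 stood at -3.58 and -3.48, above 30.5% and 32.5% of the list. From day 3 to day 7 in EV the 1164 genes of the list tested had a median of 0.31, with 210 higher and 86 lower (1415 and 1533 of all 15036 genes), beside -0.96 for Erbb3 and 1.14 for Erbb2. In MIV the median was 0.13, with 138 higher and 103 lower (1111 and 1216 of all genes).

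Nrg1 belonged to the 1127 genes enriched in healthy vein by the same rule. This list was also defined on these libraries, so that its rise against healthy nerve is favoured by its choice. The list's median log2 fold change against healthy nerve was 0.57 (EV day 3), 1.35 (EV day 7), 0.27 (MIV day 3) and 0.75 (MIV day 7). Nrg1 lay above 83.1%, 84.5%, 85.1% and 81.8% of its genes. Vein-enriched genes took 3.38% to 3.99% of the counts in healthy nerve and 5.07% to 9.79% in the repaired libraries. The part of vein tissue in the higher Nrg1 level was not tested.

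The gene whose log2 CPM followed each of the 3 most closely over the 23 libraries was taken from 11800 or more genes with a mean of at least 10 CPM in a group. For Erbb3 it was ENSRNOG00000060728 (Pearson r = 0.962 over 23 libraries), with group means of 1355 CPM in nerve and 343 to 538 CPM in the repaired groups. For Erbb2 it was ENSRNOG00000015852 (r = 0.941), with 106 CPM in nerve, 81.0 CPM in vein, 47.1 CPM in muscle and 64.5 to 75.6 CPM in the repaired groups. For Nrg1 it was ENSRNOG00000016117 (r = 0.918), with 88.3 CPM in nerve, 330 CPM in vein, 17.3 CPM in muscle and 215 to 287 CPM in the repaired groups. These libraries share tissues and days, so the correlations describe group differences more than variation within groups.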

How the data were processed

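The values are raw read counts, as deposited by the authors in 1 table with Ensembl gene identifiers as rows and libraries as columns, with no normalization. Per the labels' protocols, poly-A RNA from 350 ng of total RNA went into non-directional libraries, so strand does not separate a gene from an antisense partner. The tools named per the submitters' processing notes are HISAT2 and CASAVA. For the counter, build and gene models, the answer is not given in the sources used here, and no coordinates are printed. All 23 columns matched a library title. The symbols of the 3 genes were given with their identifiers. The RefSeq table (GRCr8) gave an Ensembl identifier in 0 of its 47357 rows, so none of the 32545 identifiers could be matched to it.

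The tests used edgeR 4.0.16 under R 4.3.3. Low genes were dropped by filterByExpr (min.count 10, min.total.count 15), libraries were scaled by TMM, and group means were compared by robust quasi-likelihood F tests with p-values adjusted by Benjamini-Hochberg over all genes and a threshold of 0.05. Repaired nerves were compared in the 12 repaired libraries (15036 genes) and with healthy tissues in all 23 (15954 genes). Standard errors are the log2 fold change over the square root of F, and 95% intervals follow from them. Log2 CPM used a prior count of 2, and ratios a pseudocount of 0.5. DESeq2 1.42.0 was an alternative. Intervals of counts cover counting error only. Tests were checked on simulated counts.

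The labels do not say that replicate numbers mark a shared animal or day. Deviations from the group means of same-numbered EV and MIV libraries correlated at -0.0913 to 0.239 at day 3. At day 7 they correlated at 0.176 to 0.224, and differently numbered ones at -0.153 to -0.0228. Deviations cancel out within a group, so positive values for same-numbered libraries favour negative ones among the others. The contrast is thus not independent evidence of pairing. Elsewhere, differently numbered libraries reached 0.276 (MIV day 3 replicate 1 with MIV day 7 replicate 3). The main tests used no pairs at either day, and a block within day 7 was added as an alternative after seeing the data. The genes, lists and comparisons were chosen with earlier results of these data known. By the rule for other genes, detected pathway genes were named where an identifier had a symbol, which none did, and otherwise the 1 identifier most alike per gene.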

Additional observations from a re-analysis of the deposited data

Results flagged for a closer look

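Healthy nerve replicate 4 held 1.23 CPM of Nrg1 (20 counts), while the other 4 nerve libraries held 0.568 to 0.702 CPM (8 to 12 counts). Its gap to the nearest library was 0.796 of the group's range, above Dixon's critical value of 0.71 for 5 samples. The log2 ratio of Nrg1 to Erbb3 was also apart in this library, at -7.99, with a gap of 0.745 of the range. Chance flags about 1 in 20 such checks, and 5 were made, 1 for each gene and each ratio in healthy nerve. The other groups had too few libraries for this check. Both flags draw on the same Nrg1 counts.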

How the results depend on the processing

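Other tests, scalings, filters, samples in the fit and the replicate block left 198 of the 201 values for the 3 genes with the same direction and side of the threshold, and a pseudocount of 2 did so for the 12 ratio results. With DESeq2, Erbb2 in MIV day 7 against healthy nerve passed (-1.11, adjusted p = 0.0430). DESeq2 called 238 genes in MIV against EV at day 3, 813 at day 7 and 16 in the difference between time courses, where edgeR called 0, and 3588 from day 3 to day 7 in MIV, where edgeR called 2327. The cause was not tested.

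The replicate block reversed the sign of Erbb3 in MIV against EV at day 3 (-0.0809) and of Erbb2 in the difference between time courses (-0.0806), neither past the threshold, and it changed no call of the 3 genes. Limited to day 7, the block called 43 genes in MIV against EV.

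With 1 library left out, some of these chosen after seeing the data, values ranged as follows. Nrg1 ran from -0.49 to 0.32 in MIV against EV at day 3, from -1.86 to 0.40 from day 3 to day 7 in MIV, from -2.21 to 0.0548 in the difference between time courses, from 0.38 to 2.62 in MIV day 7 against nerve and from -6.62 to -3.09 in muscle against nerve. Erbb2 ran from 0.25 to 1.57 in MIV against EV at day 7, from 1.06 to 1.23 over time in EV, from 0.50 to 1.85 over time in MIV, from -0.62 to 0.71 in the difference between time courses and from -1.89 to -0.58 in MIV day 7 against nerve. Erbb3 ran from -0.52 to 0.45 in MIV against EV at day 3, from -0.11 to 0.45 at day 7, from -1.30 to -0.53 over time in EV, from -1.19 to -0.33 over time in MIV and from -0.30 to 0.63 in the difference between time courses. Against nerve, the log2 ratio of Erbb3 to Erbb2 ran from -1.81 to -1.28 in EV day 7 and from -0.66 to 0.0601 in MIV day 3, and in MIV against EV at day 7 from -1.04 to 0.38. Against nerve, the log2 ratio of Nrg1 to Erbb3 ran from 4.53 to 5.34 in EV day 3, 6.14 to 6.62 in EV day 7, 4.19 to 5.49 in MIV day 3 and 4.08 to 5.51 in MIV day 7, and in MIV against EV at day 3 from -0.76 to 0.54. The 5 ratio calls were each lost in all 8 comparisons with 1 library left out, where fewer libraries raise the smallest p that permutations can give. Counts of 8 to 20 in healthy nerve limit the precision of Nrg1.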
